A study of Rattus norvegicus with 9 samples.

Results

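Integrins, laminins and the other proteins that make or bind the basement membrane were compared between the ureteric bud, the Wolffian duct it grows from, and that duct with mesodermal cells still attached. The members were taken by gene symbol, without use of their values. They were all probe sets that name 1 gene which is an integrin chain, a laminin chain, a nidogen, a chain of collagen IV, perlecan (Hspg2), agrin (Agrn), dystroglycan (Dag1), nephronectin (Npnt) or a Fraser complex protein (Fras1, Frem1, Frem2). The rule found 71 probe sets for 47 genes, of 31099 probe sets on the array and 14217 genes with a probe set of their own symbol. The test was limited to probe sets above the 40th percentile of an array on 3 or more of the 9 arrays, which 53 of the 71 probe sets and 37 of the 47 genes passed. Of the tested genes, 25 lay above that level on all 9 arrays, while Lama2, Lamb3, Itgal and Itgb7 did so on 0 UB arrays, Lama2 on arrays of the WD with mesoderm only. These 4 were tested only through the groups where they are high, so lower UB values follow partly from their passing. For Lama2 the higher values with mesoderm also follow partly from it. Npnt, Frem1, Itga2, Itga4, Itga10, Itgb8, Itgad, Lamb4 and Col4a3 matched no probe set by this rule and are not analysed here.

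The samples, pools of tissue of the Sprague-Dawley rat at embryonic day 13, were dissected directly and hybridised as biotin-labelled RNA to single-colour arrays, with no genetic change or drug in any group. The isolated ureteric bud (UB) was freed from the embryonic kidney by light trypsin treatment, at about 100 buds a pool and 3 pools. The isolated Wolffian duct (WD) was dissected without that treatment, at about 100 ducts a pool and 3 pools, and the WD with attached mesodermal cells (WD with mesoderm) at about 50 ducts a pool and 3 pools. Trypsin was used for the UB alone, so trypsin and tissue cannot be told apart, and the labels call the pools biological replicates without saying whether they shared litters. Array signals are linear intensities that the authors had scaled to a common trimmed mean, with medians of 534 to 897 per array. The precision of each value is limited by the number of arrays.

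The basement membrane is a thin sheet of matrix on which epithelia sit. Laminins, trimers of an alpha, a beta and a gamma chain, form one network in it and collagen IV another, and nidogens and perlecan join both. Cells hold it through integrins, heterodimers of an alpha and a beta chain, and through dystroglycan. In the kidney, bud outgrowth needs the integrin chain Itga8 of the mesenchyme and its ligand nephronectin, which is made by the bud, and Fraser complex proteins hold epithelium to mesenchyme.

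Marker genes showed what the pools held. Of 14 duct epithelial genes tested, UB against WD had 2 higher and 5 lower, and WD with mesoderm against WD had 0 higher and 12 lower. Their summed signal was 224431 to 235178 in the UB, 260318 to 280645 in the WD and 82093 to 121734 in the WD with mesoderm. For 12 mesenchymal genes the sums were 15001 to 19983, 110702 to 152131 and 271657 to 327018 in the same order, with 1 higher and 11 lower in UB against WD and 8 higher and 0 lower in WD with mesoderm against WD. For 12 endothelial genes they were 3367 to 4522, 5511 to 6756 and 47237 to 47383, with 1 higher and 5 lower and then 10 higher and 0 lower. For 7 red cell genes they were 9359 to 32261, 182774 to 260521 and 161374 to 234635, with 0 higher and 6 lower and then 0 higher and 0 lower. For 6 coelomic mesoderm genes they were 3264 to 4162, 35961 to 38084 and 56837 to 66658, with 0 higher and 4 lower and then 2 higher and 1 lower. The isolated WD had mesenchymal sums between those of the other tissues, and no marker tested lay below the added constant of 46 on all arrays. Technical measures also went with tissue. The signal ratio of the spiked controls bioC and bioB was 2.87 to 2.99 on 4 arrays, the 3 of UB and replicate 3 of WD with mesoderm, and 1.02 to 1.23 on the other 5. The beta-actin 3' to 5' ratio, a measure of RNA integrity, was 1.48 to 2.30 in the UB, 2.19 to 4.87 in the WD and 1.47 to 1.92 in the WD with mesoderm.

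Collagen IV genes lie in head-to-head pairs, and their windows are shown because the array measured both genes of such pairs. In RefSeq's GRCr8 windows, which run from 250 bases before to 50 after a gene's start, the starts of Col4a1 and Col4a2 lay 77 bases apart on opposite strands. In the Col4a1 window, Col4a1 starts at base 251 and Col4a2 at base 174 in the other direction. The starts of Col4a5 and Col4a6 lay 1415 bases apart, so their windows do not overlap. The windows are chr16:84885347-84885646 (plus strand), chrX:109907109-109907408 (plus strand) and chrX:109905895-109906194 (minus strand), and capitals mark GGGCGG (GC box) and CCAAT on either strand.
Col4a1: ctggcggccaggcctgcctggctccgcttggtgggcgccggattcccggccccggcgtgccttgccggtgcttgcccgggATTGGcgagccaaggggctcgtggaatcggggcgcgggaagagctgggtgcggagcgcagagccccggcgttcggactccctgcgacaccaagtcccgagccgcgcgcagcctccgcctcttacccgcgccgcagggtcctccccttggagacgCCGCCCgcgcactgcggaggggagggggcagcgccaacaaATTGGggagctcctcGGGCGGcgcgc
Col4a5: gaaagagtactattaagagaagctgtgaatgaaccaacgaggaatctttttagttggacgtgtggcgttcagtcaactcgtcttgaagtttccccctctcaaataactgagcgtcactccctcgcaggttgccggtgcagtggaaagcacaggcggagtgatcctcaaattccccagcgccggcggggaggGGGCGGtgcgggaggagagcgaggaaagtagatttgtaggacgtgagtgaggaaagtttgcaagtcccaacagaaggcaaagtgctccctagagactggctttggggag
Col4a6: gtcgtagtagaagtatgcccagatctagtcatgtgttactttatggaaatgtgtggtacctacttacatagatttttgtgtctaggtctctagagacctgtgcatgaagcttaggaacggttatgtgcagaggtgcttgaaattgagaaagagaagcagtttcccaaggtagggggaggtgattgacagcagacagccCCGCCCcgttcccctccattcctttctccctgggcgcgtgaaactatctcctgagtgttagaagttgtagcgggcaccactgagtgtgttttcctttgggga
The Col4a1 window held 2 GC boxes and 2 CCAAT boxes and those of Col4a5 and Col4a6 held 1 GC box each. Over 33469 windows of this length, 33.1% held a GC box, 37.5% a CCAAT box and 14.2% the letters TATAAA, on either strand. Of the 30 tested members with a window, 17, 10 and 2 did.

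Most members that differed between UB and WD were lower in the UB. Of the 37 genes, 3 were higher (Itga6, Lama1 and Frem2) and 16 lower, at an adjusted p under 0.05 in limma over all 20334 probe sets tested, each gene standing as its brightest probe set. Over all 10811 genes tested, 13.3% were called higher and 19.6% lower, 33.0% in all, against 8.11% and 43.2% of the members. The member median was a log2 difference of -0.67 and that of all genes -0.08. The UB arrays lay wholly below the WD arrays for 20 members and wholly above for 5, where 29.7% and 22.1% of all genes did so, 51.8% in all. At least 2-fold and called were 16 members, and 13.8% of all genes. Of the 16 lower members, 3 (Lama2, Lamb3 and Itgal) had passed the filter on 0 UB arrays. Bud tip markers moved with the higher members: all 5 tested were higher in UB against WD, with a median of 3.81 and sums of 90496 to 103820 in the UB, 17679 to 19944 in the WD and 6985 to 8943 in the WD with mesoderm, and their part in these results was not tested. The split depends on scaling, for the members and for all probe sets. With each array centred on its median, which moved the median difference of all probe sets from -0.12 to 0.34, 6 members were higher and 10 lower. Of all 20334 probe sets 5836 were then called higher and 1530 lower, against 2297 and 3776 without centring. The member median moved from -0.67 to -0.21 and stayed below that of all probe sets. No UB array shares its class of spike ratio with a WD array, and a term for that class, set only through WD with mesoderm replicate 3, kept 7 of the 19 calls, namely Itga6 higher and Itga8, Lama5, Lamb2, Nid1, Nid2 and Col4a5 lower. In these pools fewer cells of a type and less RNA per cell cannot be told apart.

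Between WD with mesoderm and WD, members went both ways. Of the 37 genes, 6 were higher (Itga8, Itga9, Lama2, Lama4, Nid1 and Nid2) and 9 lower, where 6.48% and 8.23% of all genes were called, 14.7% in all. Lama2 had passed the filter on arrays of the WD with mesoderm only, which bears on each of its calls against that tissue. At least 2-fold and called were 7 members, and 7.89% of all genes. The arrays of the WD with mesoderm lay wholly above those of the WD for 9 members and wholly below for 11, where 15.2% and 17.2% of all genes did so, 32.4% in all. With median centring the counts were 6 and 5, and 1242 and 923 of all probe sets. Between UB and WD with mesoderm, 4 members were higher in the UB (Itga6, Lama1, Lamc1 and Frem2) and 12 lower, where 13.6% and 16.6% of all genes were called, 30.3% in all, and with median centring 7 and 8. Of all probe sets 4610 and 1793 were called with median centring. Lama2 and Itgal, 2 of the 12 lower members, had passed the filter on 0 UB arrays. The UB arrays lay wholly above those of the WD with mesoderm for 6 members and wholly below for 17, where 24.2% and 25.7% of all genes did so, 49.9% in all. These 3 comparisons share arrays and are not independent. In all 3 of them 9 members were called (Itga3, Itga8, Lama1, Lama2, Lama4, Lamc1, Col4a5, Nid1 and Nid2), against 4.41% of all genes, and 14 members were called in none, against 54.0% of all genes. By mean log2 signal the UB was the lowest of the 3 tissues for 25 members, which is 67.6%, against 41.7% of all genes. Lama2, Lamb3, Itgal and Itgb7, which had passed the filter on 0 UB arrays, are among the 25, so this count follows partly from their passing. The order was taken without median centring.

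**Figure D1:**
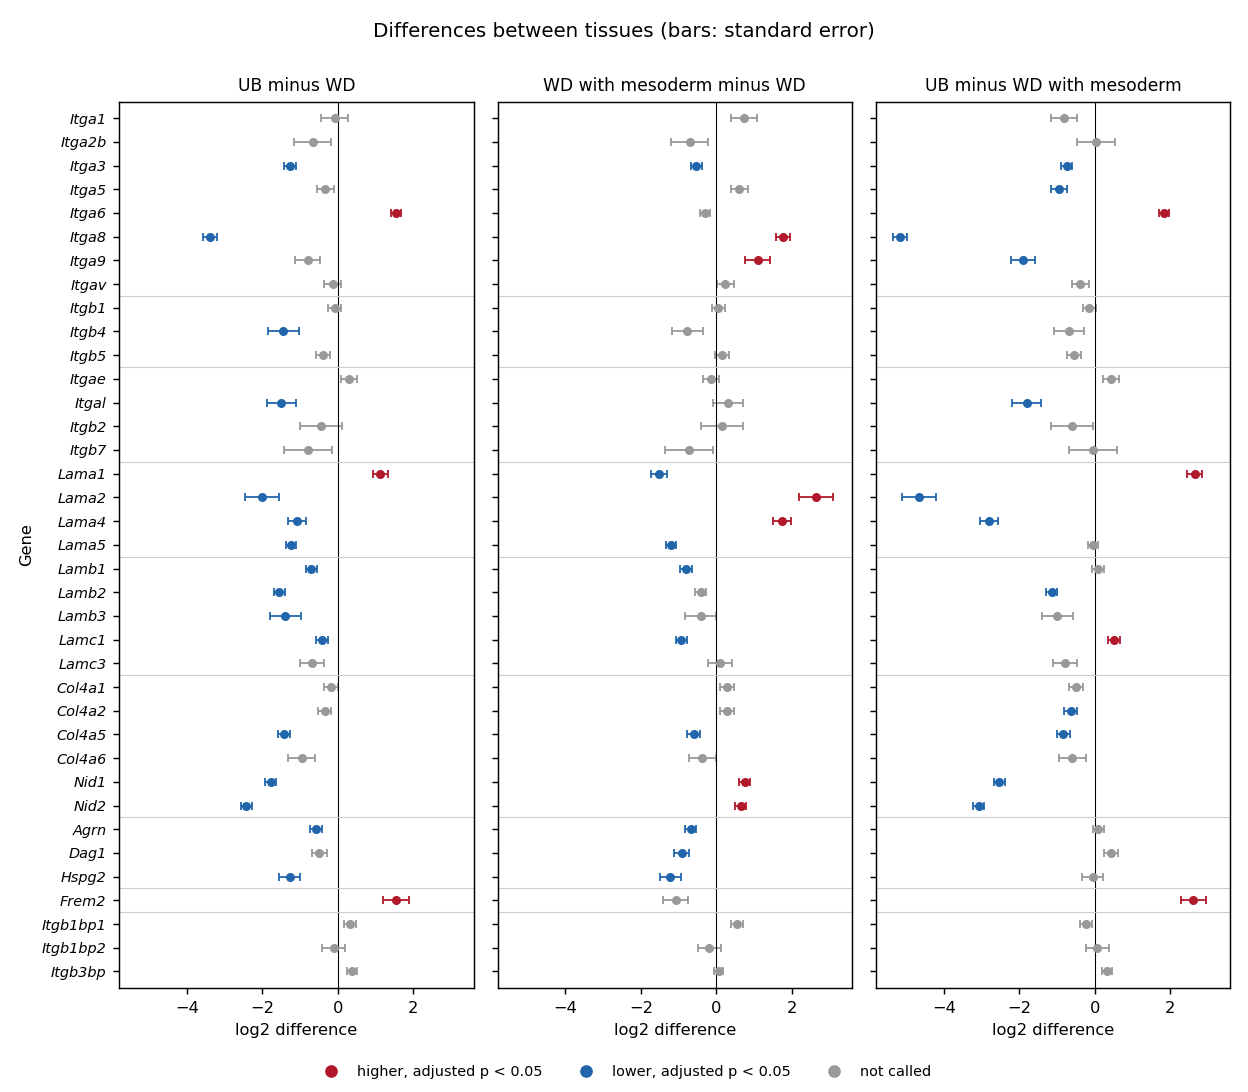
Differences between tissues for the 37 member genes tested, as log2 differences of intensity plus 46 with their standard errors, ordered by role (matrix integrin alpha chains, integrin beta chains, leukocyte integrins, laminin alpha chains, laminin beta and gamma chains, collagen IV and nidogens, Agrn with Dag1 and Hspg2, Frem2, and genes matched by symbol only). Red and blue points were called higher and lower by limma, and the UB panel shows 3 red and 16 blue points.

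The laminin alpha chains went in both directions. All 4 tested were called in UB against WD, 1 higher and 3 lower, and all 4 in WD with mesoderm against WD, 2 higher and 2 lower. Of all genes 33.0% and 14.7% were called in these comparisons. Lama2, counted in both, had passed the filter on arrays of the WD with mesoderm only, so its calls follow partly from its passing. Lama1, the alpha chain of early embryonic epithelia, had signals of 11350, 14635 and 10490 in UB replicates 1 to 3, 5888, 4083 and 6920 in the WD, and 1702, 2115 and 1860 in the WD with mesoderm. The 3 tissues did not overlap, with the UB highest. The log2 difference was 1.12 ± 0.20 (SE; adjusted p = 0.00178, limma) for UB against WD and -1.52 ± 0.20 for WD with mesoderm against WD (adjusted p = 4.68e-04). With the spike term the former was 1.15 ± 0.38 and no longer called.

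Lama5, the alpha chain of most mature epithelial basement membranes, went the other way between UB and WD. Its signals were 11262, 14606 and 11690 in the UB, 29208, 29028 and 30577 in the WD, and 11671, 14204 and 12727 in the WD with mesoderm. The WD stood above both other tissues, which overlapped. The difference was -1.25 ± 0.13 for UB against WD (adjusted p = 3.74e-05) and -1.20 ± 0.13 for WD with mesoderm against WD (adjusted p = 1.64e-04), and UB and WD with mesoderm differed by -0.04 ± 0.13 (adjusted p = 0.851). With median centring the UB against WD value was -0.79 ± 0.21, still called. The ratio of Lama1 to Lama5 within an array is not changed by a single factor per array, apart from the constant added, and quantile normalization moved its UB against WD difference from 2.37 to 2.41. Its log2 value was -0.05 ± 0.09 in the UB, -2.42 ± 0.35 in the WD and -2.74 ± 0.01 in the WD with mesoderm (SD, n = 3 each). The UB arrays lay wholly above both other groups by this ratio, while WD and WD with mesoderm overlapped.

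Lama4 and Lama2, alpha chains of vessel walls and of muscle and nerve, were lowest in the UB and highest in the WD with mesoderm. Lama4 had 787, 1072 and 626 in the UB, 2299, 1799 and 1308 in the WD, and 6032, 5903 and 5933 in the WD with mesoderm. UB against WD gave a log2 difference of -1.08 ± 0.24 (adjusted p = 0.00575), and with mesoderm it was higher by 1.74 ± 0.24 (adjusted p = 5.59e-04). The UB call was lost with median centring (-0.62 ± 0.28), with the spike term (-1.07 ± 0.44) and with the log2 beta-actin ratio as covariate (-0.54 ± 0.24). Lama2 had 16.8, 38.3 and 15.5 in the UB, 267, 211 and 222 in the WD, and 2482, 1914 and 1034 in the WD with mesoderm. All 3 UB values lay below the constant of 46 added before taking logs, so the size of differences against the UB depends on it. Lama2 rose by 2.65 ± 0.45 with mesoderm (adjusted p = 0.00210), a call lost with the beta-actin covariate (2.69 ± 0.69). It had passed the filter on arrays of the WD with mesoderm only, so this rise follows partly from its passing. Against the WD the UB differed by -2.02 ± 0.45 (adjusted p = 0.00590), by -1.25 ± 0.34 with the larger constant tried and by -0.97 ± 0.72 with the spike term, which lost the call as did the beta-actin covariate (-1.98 ± 0.63). Endothelial and mesenchymal marker sums rose in the same order of tissues, and their part in these results was not tested.

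**Figure D2:**
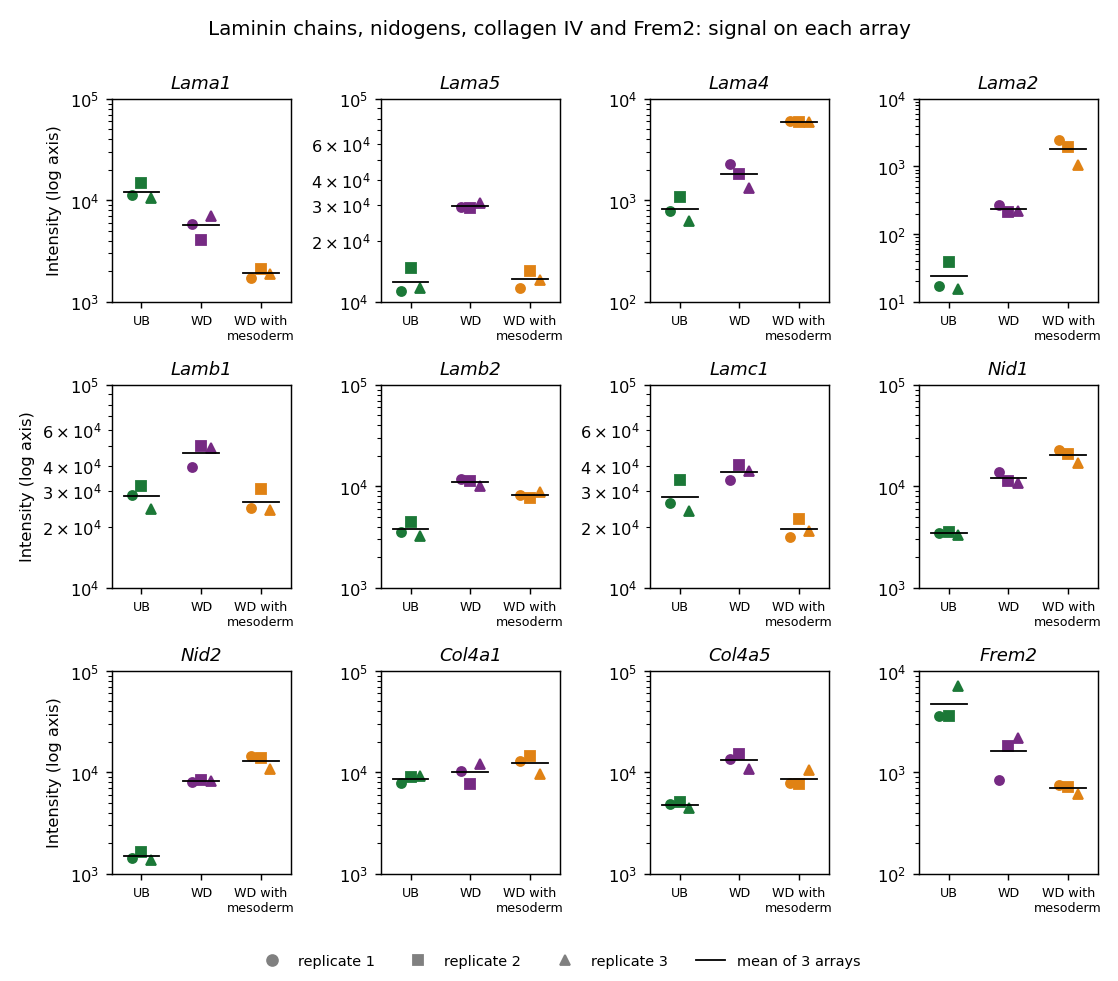
Signal of 12 matrix genes on each array (log axis, intensity units), with 3 arrays per tissue as separate symbols and the mean as a line. Lama1 and Frem2 have no overlap between tissues, with the UB highest, while Lama4, Lama2, Nid1 and Nid2 rise in that order and Lama5 is highest in the WD.

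Most beta and gamma chains were called lower in the UB than in the duct alone. Of 5 tested, 0 were higher and 4 lower in UB against WD, and 0 higher and 2 lower in WD with mesoderm against WD. In UB against WD with mesoderm 1 was higher (Lamc1) and 1 lower (Lamb2). Of all genes 13.3% and 19.6%, 6.48% and 8.23%, and 13.6% and 16.6% were called higher and lower in these comparisons. Of the 4 lower in UB against WD, Lamb2 alone kept its call in every alternative, and Lamb3 had passed the filter on 0 UB arrays. Lamb2, a beta chain of the mature glomerular and synaptic basement membranes, had 3560, 4445 and 3248 in the UB, 11685, 11186 and 10152 in the WD, and 8284, 7648 and 8847 in the WD with mesoderm. The UB stood apart from both other tissues, by -1.55 ± 0.15 against the WD (adjusted p = 1.53e-05) and -1.14 ± 0.15 against the WD with mesoderm (adjusted p = 9.86e-05). The WD with mesoderm lay wholly below the WD at -0.41 ± 0.15 but was not called (adjusted p = 0.0882).

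Lamb1 and Lamc1 are the common chains that Lama1 and Lama5 both assemble with. Lamb1 had 28690, 31552 and 24455 in the UB, 39434, 49751 and 48722 in the WD, and 24769, 30646 and 24027 in the WD with mesoderm. It was lower than in the WD by -0.70 ± 0.15 in the UB (adjusted p = 0.00406) and -0.80 ± 0.15 with mesoderm (adjusted p = 0.00343). The former was lost with median centring (-0.24 ± 0.21) and the spike term (-0.51 ± 0.26), the latter with the beta-actin covariate (-0.84 ± 0.23). Lamc1 had 26230, 33954 and 23879, then 33963, 40062 and 37513, then 17732, 21750 and 19059 in the 3 tissues in that order. The highest UB array lay just below the lowest WD array, with a difference of -0.42 ± 0.15 (adjusted p = 0.0478). This call was lost with the same sign in 12 of 24 alternatives, and in 3 more the sign turned without a call. Those were median centring (0.04 ± 0.22), the mean of its probe sets (0.12 ± 0.19) and its most variable probe set (0.66 ± 0.36). Among the single arrays left out the call held only without UB replicate 2 or WD with mesoderm replicate 1 or 2 (-0.48 to -0.31 where lost). With mesoderm Lamc1 was lower than in the WD by -0.93 ± 0.15 (adjusted p = 0.00135), a call lost with the beta-actin covariate (-0.84 ± 0.23) and with the mean of its probe sets (-0.43 ± 0.19). The UB was above the WD with mesoderm by 0.51 ± 0.15 (adjusted p = 0.0226), lost with the spike term (0.54 ± 0.21) and without UB replicate 1 (0.55) or 2 (0.36) or WD with mesoderm replicate 1 (0.44) or 3 (0.50). A second Lamc1 probe set, weaker in signal, differed by 0.66 ± 0.36, 0.06 ± 0.36 and 0.60 ± 0.36 in the 3 comparisons and was not called. The ratio of Lamb1 to Lamc1 stayed within 1 log2 unit, from -0.11 to 0.49 over the 9 arrays, with the UB below both other groups.

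Lamb3, a beta chain of the laminin under hemidesmosomes, was weak, at 92.7, 242 and 299 in the UB, 531, 606 and 626 in the WD, and 415, 544 and 354 with mesoderm. It had passed the filter on 0 UB arrays. Its difference of -1.40 ± 0.41 in UB against WD (adjusted p = 0.0241) was lost with quantile normalization (-0.73 ± 0.39), median centring (-0.94 ± 0.42), the spike term (-1.02 ± 0.75) and the beta-actin covariate (-1.66 ± 0.57). It was also lost without UB replicate 1 (-1.0), WD replicate 2 (-1.38) or WD replicate 3 (-1.36). Lamc3, found outside epithelia in several tissues, ran from 474 to 1405 over the arrays and was not called. Lama3 did not pass the filter, at 22.8 to 175.

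Integrin alpha chains for laminin parted in the UB. Itga6, a laminin receptor chain that pairs with Itgb1 or Itgb4, had 16768, 14782 and 14143 in the UB, 5387, 4726 and 5479 in the WD, and 4825, 3690 and 4167 in the WD with mesoderm. The UB was far above both others, by 1.54 ± 0.14 (adjusted p = 1.35e-05) and 1.84 ± 0.14 (adjusted p = 1.40e-06), and WD with mesoderm differed from WD by -0.30 ± 0.14 (adjusted p = 0.198). A second probe set was called higher as well, by 1.89 ± 0.50, and a further one differed by 1.21 ± 0.58 without a call. On both, UB replicate 3 stood above UB replicates 1 and 2, at 4265 against 1558 and 1407 and at 3095 against 713 and 602. The UB against WD call of the brightest probe set held with the spike term at 1.56 ± 0.27.

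Itga3, the other main laminin receptor chain of kidney epithelium, was lowest in the UB. Its signals were 4344, 4497 and 3552 in the UB, 9221, 9858 and 10870 in the WD, and 6190, 8162 and 6508 with mesoderm. No 2 tissues overlapped. UB and WD differed by -1.27 ± 0.15 (adjusted p = 1.09e-04) and with the spike term by -1.14 ± 0.28, which was not called. UB and WD with mesoderm differed by -0.74 ± 0.15 (adjusted p = 0.00353), lost with median centring (-0.38 ± 0.23) and the spike term (-0.66 ± 0.22). The difference of -0.53 ± 0.15 between WD with mesoderm and WD (adjusted p = 0.0431) was lost in 16 of 24 alternatives, among them the removal of any array except UB replicate 3 and WD with mesoderm replicate 2 (-0.58 to -0.45). The log2 ratio of Itga6 to Itga3 within an array was 1.87 ± 0.15 in the UB, -0.94 ± 0.15 in the WD and -0.71 ± 0.39 in the WD with mesoderm (SD, n = 3 each). The UB lay wholly above the others by it, and WD and WD with mesoderm overlapped.

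**Figure D3:**
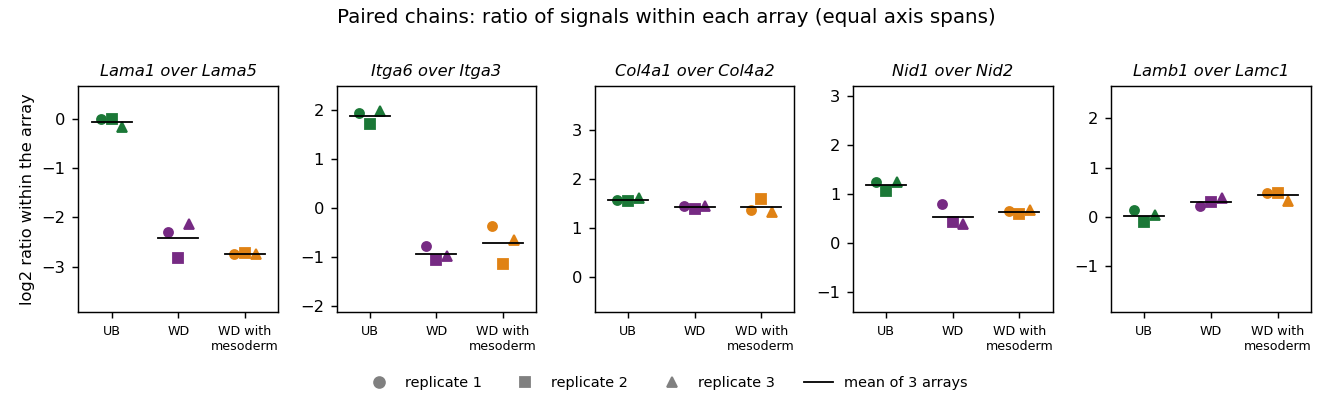
Log2 ratio of the signals of paired genes within each array, on axes of equal span, with 3 arrays per tissue and the mean as a line. Lama1 over Lama5 and Itga6 over Itga3 are higher on all UB arrays than on any other array, while Col4a1 over Col4a2 ranges from 1.33 to 1.62 over the 9 arrays.

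Itga8, the mesenchymal nephronectin receptor chain, had the largest difference of any member in UB against WD by the values of the brightest probe sets. It had 315, 360.2 and 266 in the UB, 4281, 3706 and 3185 in the WD, and 12046, 14161 and 12026 in the WD with mesoderm. Each tissue stood clear of the next. The log2 differences were -3.39 ± 0.18 for UB against WD (adjusted p = 1.25e-07), 1.77 ± 0.18 for WD with mesoderm against WD (adjusted p = 1.11e-04) and -5.16 ± 0.18 for UB against WD with mesoderm (adjusted p = 3.51e-09). All 3 calls held in each alternative tried. The second probe set differed by -2.67 ± 0.41, 1.19 ± 0.41 and -3.86 ± 0.41, the middle one not called (adjusted p = 0.0800). The mesenchymal sums given above follow the same order, and their part in this was not tested.

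Of the other matrix integrin alpha chains, Itga9 and Itga5 were called. Itga9, a receptor chain for tenascin and a marker of lymphatic valves, had 311, 186 and 506 in the UB, 563, 560.5 and 611 in the WD, and 1489, 1164 and 1238 with mesoderm. The UB was lower than the WD with mesoderm by -1.90 ± 0.33 (adjusted p = 9.95e-04). Its rise of 1.10 ± 0.33 from WD to WD with mesoderm (adjusted p = 0.0477) was lost in 13 of 23 alternatives, among them without UB replicate 1 or without any WD or WD with mesoderm array (1.0 to 1.17), and came to 0.61 ± 0.47 with the beta-actin covariate. Itga5, the fibronectin receptor chain, had 891, 905 and 1204 in the UB, 1446, 1038 and 1337 in the WD, and 1887, 2219 and 1778 with mesoderm. It was called between UB and WD with mesoderm alone, at -0.95 ± 0.22 (adjusted p = 0.00625), and lost with median centring (-0.58 ± 0.24) and the spike term (-0.82 ± 0.31). Itga1 (a collagen receptor chain, 319 to 1127), Itga2b (the platelet chain, 189 to 1267) and Itgav (which binds RGD ligands, 3782 to 8416) were not called in any comparison. Itga7 and Itga11 did not pass the filter.

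Itgb1, the partner of most of these alpha chains, had 25573, 24543 and 20697 in the UB, 23254, 31699 and 21286 in the WD, and 24764, 23017 and 30588 in the WD with mesoderm. The 3 tissues overlapped, with differences of -0.09 ± 0.17, 0.05 ± 0.17 and -0.14 ± 0.17 in the 3 comparisons (adjusted p = 0.708, 0.876 and 0.598). Its second probe set was called higher than in the WD in both the UB (0.38 ± 0.13, adjusted p = 0.0485) and the WD with mesoderm (0.55 ± 0.13, adjusted p = 0.0167), so the probe sets of Itgb1 disagree on a small difference. Itgb4, the hemidesmosome chain that pairs with Itga6, was weak, at 216, 225 and 370.1 against 605, 1059 and 789 in the WD and 488, 706 and 254 with mesoderm. The UB against WD difference of -1.45 ± 0.41 (adjusted p = 0.0193) was lost with quantile normalization (-0.83 ± 0.36), median centring (-0.99 ± 0.39) and the spike term (-0.37 ± 0.65). It was also lost without UB replicate 1 (-1.33) or 2 (-1.35) or WD replicate 2 (-1.25). WD with mesoderm replicate 3, with the UB's spike ratio, had the lowest Itgb4 of its group, and the cause of this was not tested. Itgb5, a partner of Itgav, ran from 2772 to 5133 and was not called, though a second probe set was called lower in UB against WD (-0.78 ± 0.23). Itgb3 and Itgb6 did not pass the filter.

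**Figure D4:**
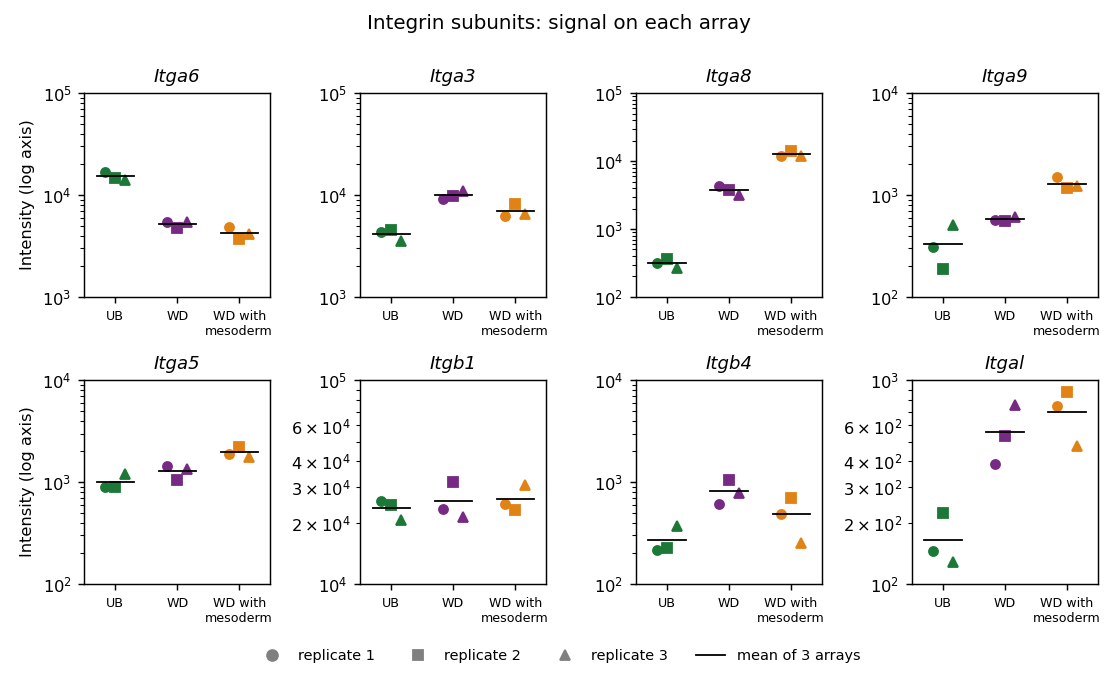
Signal of 8 integrin chains on each array (log axis, intensity units), with 3 arrays per tissue as separate symbols and the mean as a line. Itga6 is highest and Itga3 and Itga8 lowest in the UB, and the tissues overlap for Itgb1.

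Of the 4 leukocyte integrin chains tested, Itgal alone was called, and it had passed the filter on 0 UB arrays. Itgal, the alpha chain of the lymphocyte and macrophage integrin that Itgb2 completes, had 145.4, 222.2 and 128.3 in the UB, 389, 530.2 and 754 in the WD, and 747, 878 and 474 in the WD with mesoderm. UB against WD gave -1.50 ± 0.39 (adjusted p = 0.0136) and UB against WD with mesoderm -1.80 ± 0.39 (adjusted p = 0.00450). Both were lost with the spike term (-0.77 ± 0.67 and -1.32 ± 0.52), and the former also with quantile normalization (-0.81 ± 0.36). Of 9 macrophage markers tested, UB against WD had 0 higher and 5 lower, and their sums were 1625 to 2239 in the UB, 3870 to 6420 in the WD and 6367 to 8661 with mesoderm. Their part in the Itgal result was not tested. Itgae, an alpha chain of epithelial lymphocytes, had 2367 to 4365 over the 9 arrays and was above the filter level on all of them. It was not called, nor were Itgb2 (100.3 to 602) and Itgb7 (81.6 to 720.3), and Itgam and Itgax, both near background at 13.7 to 166, did not pass the filter.

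Nidogens fell in the UB and rose with mesoderm. Nid2 had 1435, 1653 and 1376 in the UB, 7976, 8353 and 8220 in the WD, and 14349, 13826 and 10722 in the WD with mesoderm. Nid1 had 3457, 3506 and 3331, then 13946, 11360 and 10698, then 22649, 20939 and 17092 in the same order. The 3 tissues did not overlap for either gene, and replicates within a tissue were close. UB against WD gave -2.43 ± 0.15 for Nid2 (adjusted p = 4.69e-07) and -1.78 ± 0.15 for Nid1 (adjusted p = 4.64e-06), and both calls held with the spike term, at -2.04 ± 0.24 and -1.44 ± 0.24. With mesoderm Nid1 rose by 0.75 ± 0.15 (adjusted p = 0.00526) and Nid2 by 0.65 ± 0.15 (adjusted p = 0.0137). The Nid2 rise was lost with the beta-actin covariate (0.63 ± 0.23) and without WD with mesoderm replicate 2 (0.60). A second, weaker Nid1 probe set differed by -0.39 ± 0.35, 0.04 ± 0.35 and -0.44 ± 0.35 and was not called, and the mean of both Nid1 probe sets gave -1.09 ± 0.21 for UB against WD and 0.40 ± 0.21, no longer called, with mesoderm. The log2 ratio of Nid1 to Nid2 was 1.18 ± 0.10 in the UB, 0.54 ± 0.23 in the WD and 0.64 ± 0.04 with mesoderm (SD, n = 3 each), so the fall in the UB was larger for Nid2 by these probe sets.

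Of 6 nidogen and collagen IV genes tested, the collagen IV chains called were Col4a5, in all 3 comparisons, and Col4a2, in 1. Col4a1, whose promoter window is shown above with the start of Col4a2 in it, had 7856, 8967 and 9184 in the UB, 10394, 7649 and 12167 in the WD, and 12809, 14575 and 9584 with mesoderm. Col4a2 had 2601, 3011 and 2966, then 3769, 2917 and 4381, then 4928, 4783 and 3790. By these probe sets UB and WD overlapped for both genes and the UB lay below every array of the WD with mesoderm. The UB differed from the WD with mesoderm by -0.64 ± 0.18 for Col4a2 (adjusted p = 0.0214) and by -0.49 ± 0.19 for Col4a1 (adjusted p = 0.0851). Col4a1 was called there in 4 of 24 alternatives: array weights (-0.59 ± 0.16), the mean of its probe sets (-0.45 ± 0.16), and without WD replicate 2 (-0.49) or WD with mesoderm replicate 3 (-0.66 ± 0.19). Its second probe set, at 7478, 6778 and 8955 in the UB and 12465, 9825 and 8714 with mesoderm, overlapped and was not called (-0.41 ± 0.16, adjusted p = 0.0920). The Col4a2 call was lost with median centring (-0.28 ± 0.21), the spike term (-0.40 ± 0.25), and without UB replicate 1 (-0.57), WD with mesoderm replicate 1 (-0.57) or 2 (-0.59). The log2 ratio of Col4a1 to Col4a2 was 1.58 ± 0.03, 1.43 ± 0.05 and 1.43 ± 0.15 in the 3 tissues (SD, n = 3 each), and its UB against WD difference of 0.15 came to 0.02 with quantile normalization.

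Col4a5, which pairs with Col4a6 on the X chromosome, was highest in the WD. Col4a5 had 4855, 5133 and 4443 in the UB, 13477, 15262 and 10731 in the WD, and 7774, 7729 and 10498 with mesoderm, with no overlap. It differed by -1.43 ± 0.17 for UB against WD (adjusted p = 8.32e-05), held with the spike term at -1.87 ± 0.27, and by -0.83 ± 0.17 for UB against WD with mesoderm (adjusted p = 0.00291), lost with median centring (-0.47 ± 0.25). The difference of -0.60 ± 0.17 with mesoderm (adjusted p = 0.0355) was lost in 11 of 24 alternatives, among them median centring (-0.50 ± 0.25) and the beta-actin covariate (-0.31 ± 0.23). It was also lost without UB replicate 1 (-0.60), WD replicate 1 (-0.57) or 2 (-0.49), or WD with mesoderm replicate 1 or 2 (-0.53 each). Col4a6 had 519, 348 and 336 in the UB, 865, 1062 and 570.0 in the WD, and 591, 445 and 873 with mesoderm, and was not called (UB against WD -0.96 ± 0.35, adjusted p = 0.0552). Its second probe set was called lower in the UB, by -1.77 ± 0.37 against the WD (adjusted p = 0.00426). Col4a4 did not pass the filter.

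Perlecan and agrin were highest in the WD, and dystroglycan was lower with mesoderm. Hspg2 (perlecan, a heparan sulfate proteoglycan) had 3503, 6926 and 3409 in the UB, 10553, 12548 and 9039 in the WD, and 4429, 6157 and 3382 with mesoderm. It differed from the WD by -1.28 ± 0.28 in the UB (adjusted p = 0.00535) and -1.22 ± 0.28 with mesoderm (adjusted p = 0.0125). The UB call was lost with the spike term (-0.66 ± 0.47) and the beta-actin covariate (-0.99 ± 0.37). The call with mesoderm was lost with the spike term (-1.02 ± 0.29), the beta-actin covariate (-0.89 ± 0.41), and without WD replicate 2 (-1.10) or WD with mesoderm replicate 3 (-1.02). Agrn (agrin, a proteoglycan that binds laminin and dystroglycan) had 18586, 22706 and 20909 in the UB, 26617, 32084 and 34449 in the WD, and 21299, 20967 and 15918 with mesoderm. Its differences from the WD were -0.58 ± 0.15 (adjusted p = 0.0134) and -0.68 ± 0.15 (adjusted p = 0.0107). The first was lost with median centring (-0.12 ± 0.19), the spike term (-0.17 ± 0.24) and without UB replicate 1 (-0.50), and the second with median centring (-0.59 ± 0.19).

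Dag1, the laminin and agrin receptor dystroglycan, had 12654, 14742 and 11874 in the UB, 14903, 21894 and 18802 in the WD, and 7412, 10763 and 11347 with mesoderm. It was lower with mesoderm than in the WD by -0.92 ± 0.19 (adjusted p = 0.00674), as was the second brightest of its 4 probe sets (-0.77 ± 0.19), while the other 2 differed by 0.20 ± 0.90 and -0.39 ± 0.51. The call was lost with the beta-actin covariate (-0.90 ± 0.29), median centring (-0.82 ± 0.26) and the mean of its probe sets (-0.47 ± 0.35). UB and WD differed by -0.49 ± 0.19 (adjusted p = 0.0663). Duct epithelial markers had a median log2 difference of -1.65 in WD with mesoderm against WD. They fell beside the 9 members called lower there (Lama1, Lama5, Lamb1, Lamc1, Itga3, Col4a5, Agrn, Dag1 and Hspg2). The part of these markers in the results was not tested.

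Frem2, a Fraser complex protein of epithelial basement membranes, was highest in the UB. It had 3604, 3557 and 7071 in the UB, 848, 1832 and 2202 in the WD, and 756, 716 and 614 with mesoderm. The tissues did not overlap. UB against WD gave 1.54 ± 0.34 (adjusted p = 0.00619) and UB against WD with mesoderm 2.62 ± 0.34 (adjusted p = 1.14e-04), while WD with mesoderm against WD gave -1.08 ± 0.34 (adjusted p = 0.0616). Within each of the 3 tissues, Frem2 was highest on the array with the lowest beta-actin ratio. With that ratio as covariate UB against WD came to 0.61 ± 0.27 and was not called. WD with mesoderm against WD then came to -2.19 ± 0.30 and was called, as it was without UB replicate 3 (-1.08) or WD replicate 1 (-1.48). With the spike term UB against WD was 1.79 ± 0.64 and not called. Fras1 did not pass the filter, at 118 to 591.

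The symbol rule also took in 4 genes that are not integrins. Itgb1bp1 and Itgb1bp2 bind the tail of Itgb1, Itgb3bp is a centromere protein, and Itgbl1 is a secreted protein. No brightest probe set of the first 3 was called, and Itgbl1 did not pass the filter. Second probe sets of Itgb1bp1 and Itgb3bp were called in UB against WD, at -1.30 ± 0.42 and 0.82 ± 0.24.

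Genes that work with these members were counted from lists chosen with earlier results of these data known. Of 21 tested genes of integrin adhesion and other matrix receptors, 0 were higher and 10 lower in UB against WD, 3 higher and 2 lower in WD with mesoderm against WD, and 1 higher and 10 lower in UB against WD with mesoderm. Of all genes 13.3% and 19.6%, 6.48% and 8.23%, and 13.6% and 16.6% were called higher and lower in the same order. The medians of the 21 were -0.44, -0.02 and -0.40. Ddr2, a collagen receptor kinase of mesenchyme, changed by -3.60 ± 0.18 and 1.03 ± 0.18 in the first 2 comparisons. Ddr1, its epithelial relative, differed by -1.35 ± 0.12 in UB against WD, as did Bcam, a Lama5 receptor, by -1.12 ± 0.19. Bcam also fell with mesoderm, by -1.06 ± 0.19, beside the fall of Lama5. Tns3, which links integrins to actin, was lower in the UB by -0.87 ± 0.14.

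Of 22 tested matrix ligands and other basement membrane genes, 1 was higher (Fbln2, named after its value was seen) and 20 lower in UB against WD, 9 higher and 1 lower in WD with mesoderm against WD, and 1 higher and 19 lower in UB against WD with mesoderm. Their medians were -1.50, 0.52 and -1.93, and the shares of all genes called are those given for the list before. Tgfbi, Smoc2 and Postn, secreted matrix proteins, differed in UB against WD by -3.30 ± 0.16, -3.62 ± 0.18 and -3.80 ± 0.20. With mesoderm Efemp1 rose by 1.89 ± 0.23, Col15a1, a collagen of vascular basement membranes, by 1.90 ± 0.24, and Egflam, a dystroglycan ligand, by 1.76 ± 0.29. The 1 gene of this list that fell with mesoderm was Col18a1, a basement membrane collagen, named after its value was seen (-1.06 ± 0.18). Postn stood among the mesenchymal markers as well, whose sums moved in the same directions, and their part in these counts was not tested.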

How the data were processed

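Total RNA of 9 tissue pools was measured on single-colour arrays, 3 pools for each of 3 tissues. The deposited table gives 1 linear intensity per probe set and array. Per the submitters' processing notes the authors used GCOS, with version, algorithm and settings not given in the sources used here. All arrays have the same mean signal, 2501, after trimming 2% at either end. Differences are thus relative to the rest of the array, and no detection calls were used. Probe sets were named from the platform table, with symbols updated by Entrez ID. Sequences are from RefSeq.

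Values were tested as log2(intensity + 46), the constant being the 10th percentile of all values, which understates differences of weak genes. A model of tissue alone was fitted over the 9 arrays with limma 3.58.1 in R 4.3.3, with a mean-variance trend. The 3 tissues shared 1 estimate of spread, with 6 residual and 6.09 prior degrees of freedom. P-values were adjusted by Benjamini-Hochberg over 20334 probe sets within each comparison and called under 0.05. The first-named tissue minus the second gives the sign. The p-values measure the spread between pools. A gene stands as its probe set of highest mean log2 signal. Called members and 14 set genes were named, and up to 4 per role given by array. Of listed genes outside the members, up to 4 per comparison were eligible to be named. In simulated data of 20334 probe sets, made for UB against WD, the fit recovered 33% of changes of 1 log2 unit and 77% of those of 2. Only 100 probe sets of each size were changed there, and 117 were called. The real comparison called 2297 higher and 3776 lower, so its p-value cutoff differs. These shares thus do not tell how much the reported fit recovers. The alternatives were other scalings, constants, filters, variance models, array weights, a fit of 2 groups alone, the replicate number as a block, other probe sets of a gene, a 2-fold minimum, spike and beta-actin terms, and leaving out each array. The members, lists and alternatives were chosen with earlier results of these data known.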

Additional observations from a re-analysis of the deposited data

How the results depend on the processing

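Of 50 gene calls named above, 21 held in every alternative in which the gene was tested. The spike term lost 20 of the 50 and the beta-actin covariate 15, the cause being not tested. Counts of members that moved by over 1.5 times were as follows. In UB against WD, 3 higher became 6 with median centring, 5 with the probe set of highest interquartile range and 1 with the spike term, and 16 lower became 10 with median centring and 6 with the spike term. Over all probe sets 2297 higher and 3776 lower became 5836 and 1530 with median centring and 202 and 596 with the spike term. In WD with mesoderm against WD, 9 lower became 5 with median centring, 3 with a 2-fold minimum and 4 with the beta-actin covariate, which left 3 of 6 higher. In UB against WD with mesoderm, 4 higher became 7 with median centring and 12 lower became 7 with the stricter filter, under which 22 members were tested. Leaving out 1 array gave 3 to 4 higher and 12 to 17 lower, 4 to 6 and 6 to 10, and 3 to 4 and 11 to 14 in the 3 comparisons. Of 75 gene results, 17 had another sign under some alternative, 3 of them called and 14 not. The called ones were Lamc1 in UB against WD (0.04 with median centring, 0.12 as the mean of its probe sets, 0.66 by its most variable probe set) and, by the most variable probe set, Lamc1 (0.06) and Dag1 (0.20) in WD with mesoderm against WD. The others, not called above, include Itgb1 in UB against WD, which was called at 0.38 by its most variable probe set, and Col4a1, Col4a2 and Itga5 in the same comparison (up to 0.32, 0.11 and 0.13). Same-numbered pools of different tissues deviated together no more than others (r from -0.35 to 0.28, against -0.26 to 0.3). No pairing by number was seen, but with 3 arrays a group this check cannot exclude shared litters. With the replicate number as a block the counts were 3 and 17, 5 and 7, and 4 and 12. Signal over background limits the weak members, Lama2 in the UB, Itgb4, Lamb3, Itgal and the 10 genes below the filter.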

Other observations

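On the weaker probe sets of the members, single pools stood out in the same way. Of 16 tested probe sets that were not the brightest of their gene, UB replicate 3 was the highest UB array on 12 and WD with mesoderm replicate 1 the highest of its group on 12. On the 37 brightest probe sets these arrays were the highest on 10 and 14. Examples in UB replicates 1 to 3 are 1558, 1407 and 4265 for a second Itga6 probe set and 4549, 5439 and 10055 for that of Lamc1, against 16768, 14782 and 14143 and 26230, 33954 and 23879 for the brightest ones. Over all genes UB replicate 3 was highest on 61.1% of 4267 such weaker probe sets and on 31.5% of 10811 brightest ones, and WD with mesoderm replicate 1 on 55.0% and 26.9% of its group. Both arrays had the lowest beta-actin 3' to 5' ratio of their tissue, 1.48 and 1.47. WD replicate 3 had the lowest of the WD, 2.19. It was the highest WD array on 9 of the 16 weaker member probe sets and on 16 of the 37 brightest. Over all genes it was so on 48.1% and 35.5%.

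Of the 12 members with several tested probe sets, 4 had the same call from each in UB against WD, 7 in WD with mesoderm against WD and 8 in UB against WD with mesoderm, and 0 had opposite calls.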
